A study of Mus musculus with 4 samples.

Results

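Axonal and neuronal cytoskeleton transcripts were examined in the sciatic nerve of HSF V30M and HSF WT mice by the gene symbols Nefl, Nefm, Nefh, Prph, Ina, Gap43, Stmn2, Tubb3, Uchl1 and Sncg. All 10 are among the 50593 genes of the Cuffdiff table. The labels list 2 HSF V30M and 2 HSF WT samples, all of strain 129S1/SvImJ and 6 months old. HSF V30M mice carry a human TTR V30M transgene, lack endogenous TTR, and are heterozygous for a deletion of the heat shock factor gene Hsf-1. HSF WT mice share the heterozygous Hsf-1 deletion, carry no transgene and keep their own Ttr, so that the transgene and the null allele differ between the groups together. The promoter of the transgene and the sex of the mice are not given in the sources used here. The study sequenced nerve RNA to ask whether chemokine expression is altered in this model of hereditary transthyretin amyloidosis, a neuropathy in which axons degenerate. The table gives 1 FPKM value (fragments per kilobase of transcript, scaled to depth) per gene and group, and none per mouse, so no value has a spread between mice and no difference was tested here; the Cuffdiff test between the groups that the table also holds was not used. As a check of the labels, mouse Ttr had an FPKM of 6.1 under the label HSF V30M, whose own Ttr is null, and is listed at 0 under HSF WT. Reads of the human transgene and of mouse Ttr cannot be told apart in this table, so Ttr checks neither label, and group names are used below as labelled. Hsf1, which the paper describes as heterozygous in both groups, had 7.94 under HSF V30M against 15 under HSF WT. These values lie more than 1.5-fold apart, so they do not bear out a shared Hsf-1 genotype. Whether the Hsf-1 dose differs between the groups was not tested.

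A peripheral axon is held open by neurofilaments, which are polymers of the light, medium and heavy chains Nefl, Nefm and Nefh together with peripherin (Prph) or internexin alpha (Ina), and by microtubules that carry transport along it. The cell bodies that transcribe these genes lie in dorsal root ganglia, spinal cord and sympathetic ganglia, outside the nerve, so sciatic nerve RNA holds the axonal share of such transcripts together with RNA of Schwann cells, connective tissue, vessels and blood. Several of the genes are also known from other cells: Sncg is known from adipocytes as well as from sensory and motor neurons, and Gap43 from non-myelinating and denervated Schwann cells as well as from growing axons.

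Tubb3, Uchl1 and Sncg were higher in HSF V30M nerve, and no member was lower beyond the same fold. The fold used was 1.5 on the scale of log2((HSF V30M + 1) / (HSF WT + 1)), which understates the change of low genes, and genes whose FPKM averaged at least 1 over the groups were counted. Of the 10 members, 8 reached this mean, 3 were higher past the fold and 5 were not past it. Across all 15620 genes that reached the mean, 8.22% were higher past the fold and 8.44% were lower. Linear folds below are without a pseudocount, and log2 ratios with a pseudocount of 1 unless another is named. The median log2 ratio of the 8 members was 0.45, and that of all genes was 0.00. The count rests on 3 genes without a replicate check and is given as a description. Read totals are not in the table, so the number of fragments behind a value was estimated from the smallest step between low values, which is the worth of 1 fragment. Of the deeper libraries of each group, that of HSF V30M exceeded that of HSF WT 1.23-fold. The counting intervals given below cover counting error only. A transcript can be scarcer because fewer axons or cells hold it or because each holds less, and in bulk nerve these cannot be told apart.

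**Figure D1:**
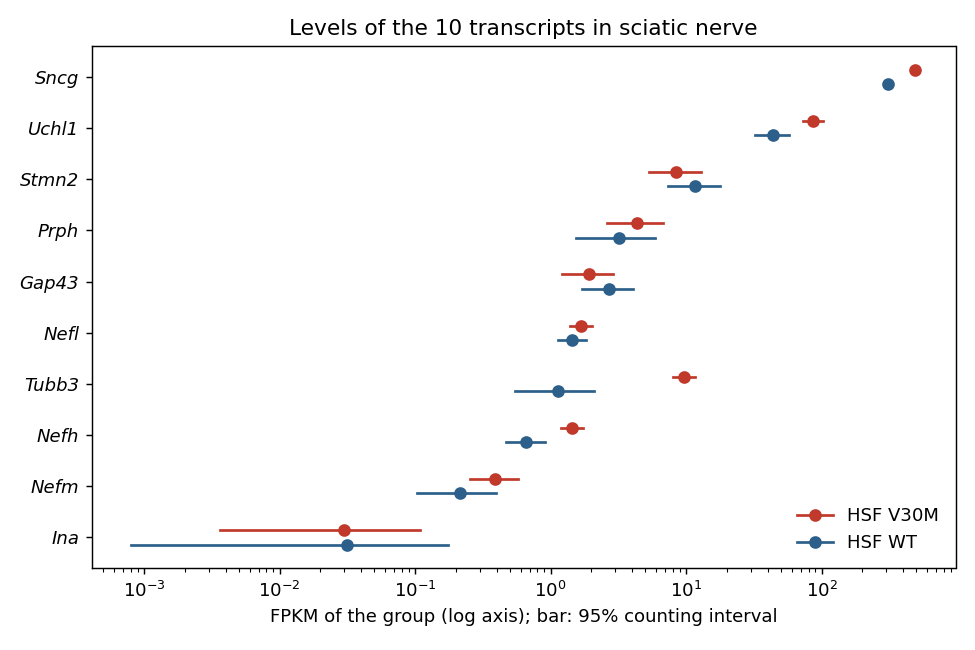
FPKM of each of the 10 transcripts in HSF V30M (red) and HSF WT (blue) on a log axis, with points for the group value and bars for the 95% Poisson counting interval, which does not cover the spread between mice. Sncg has the highest values and the narrowest bars, from 476 to 499 and from 297 to 319, and Ina, with the lowest values, has the widest.

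The stretches before the starts of the 3 higher genes are shown because these are the members whose levels differed past the fold. Sequences are from RefSeq on GRCm38.p6, which holds promoter windows for 5 of the 10 members (Tubb3, Uchl1, Sncg, Prph and Ina). Each stretch begins 250 bases before the RefSeq start and ends at the last base before the earlier GENCODE start of the gene, and is written 5′ to 3′ on the strand of the gene. Capitals mark matches, on either strand, to the heat shock element core GAANNTTC or to the GC box GGGCGG.
Tubb3, chr8:123411303-123411423, plus strand: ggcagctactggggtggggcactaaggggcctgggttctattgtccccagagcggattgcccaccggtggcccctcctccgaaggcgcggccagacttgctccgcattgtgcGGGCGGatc
Uchl1, chr5:66675871-66676090, plus strand: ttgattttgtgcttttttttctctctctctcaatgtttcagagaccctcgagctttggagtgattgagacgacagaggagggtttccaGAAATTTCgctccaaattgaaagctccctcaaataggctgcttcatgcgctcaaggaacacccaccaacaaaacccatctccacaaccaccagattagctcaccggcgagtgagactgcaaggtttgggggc
Sncg, chr14:34374790-34374919, minus strand: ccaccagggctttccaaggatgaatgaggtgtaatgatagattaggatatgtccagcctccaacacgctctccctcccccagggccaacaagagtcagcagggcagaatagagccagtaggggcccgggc

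In the whole window of 250 bases, Uchl1 holds 1 heat shock element core, which begins 162 bases before the RefSeq start, and it is the only one of the 5 members with such a match. This core is found in 6.69% of 32851 RefSeq windows of the same length. The protein of Hsf1 binds heat shock elements, and whether it binds this match or acts on Uchl1 was not tested. The GC box matched in 32.7% of the windows, and in all of the 5 members except Uchl1. Prph holds 1, beginning 24 bases before the RefSeq start, and Ina holds 2, beginning 111 and 12 bases before it. Neither Prph nor Ina was past the fold, so the box does not set the higher members apart. Tubb3 holds 2 GC boxes, beginning 138 and 46 bases before the RefSeq start (the one at 138 is in the printed stretch). Sncg holds 1, beginning 78 bases before the RefSeq start, past the end of its printed stretch. The boxes at 46 and 78 thus lie within the gene spans of GENCODE and not before them. The TATA box TATAAA, present in 12.4% of the windows, was matched in Prph alone among the 5 members. No searched motif was thus found in all 3 higher members, and a match in letters is a description and not a bound site.

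Sncg, which encodes gamma-synuclein, a small presynaptic and axonal protein that modulates neurofilament networks, was the most abundant member. Its FPKM was 488 in HSF V30M nerve against 308 in HSF WT. These levels stood above those of 98.4% and 97.8% of the genes with a mean of at least 1. Sncg (ENSMUSG00000023064) lies on chromosome 14 of GRCm38 from 34370274 to 34374789, and has 1 annotated transcript of 852 bases that shares no position with another annotated gene. By the worth of 1 fragment, its values stand for 6889 to 8145 fragments in HSF V30M nerve against 3096 to 4168 in HSF WT. The fold between the groups was 1.58, with a 95% counting interval from 1.52 to 1.65, and the log2 ratio was 0.66. Sncg made up 80.9% of the summed FPKM of the 10 members in HSF V30M nerve against 82.7% in HSF WT, so that their sum, 602 against 372, is largely the level of Sncg.

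All 9 listed adipocyte genes had a lower value in HSF V30M, 3 of them past the fold, with a median log2 ratio of -0.41 and a summed FPKM of 3530 against 4710. Cfd, the most abundant of them, had 1190 in HSF V30M nerve against 1470 in HSF WT, and Lep, which encodes leptin, had 7.47 and 33.4. The part of adipocytes in the Sncg value was not tested. The 5 intermediate filament members together had an FPKM of 7.89 in HSF V30M nerve against 5.57 in HSF WT.

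Uchl1 encodes the ubiquitin hydrolase PGP9.5, an abundant neuronal enzyme that is widely used to stain nerve fibres. It ranked second among the members in both groups, with an FPKM of 87.0 in HSF V30M nerve against 43.4 in HSF WT. The HSF V30M value was 2.0-fold that of HSF WT, and the log2 ratio was 0.98. Uchl1 (ENSMUSG00000029223) lies on chromosome 5 from 66676091 to 66687234 and has 4 annotated transcripts of 228 to 1177 bases. The shortest and the longest of these allow between 140 and 2177 fragments in HSF V30M and between 50 and 882 in HSF WT. With the smallest of these numbers, the counting interval of the fold ran from 1.44 to 2.82. Its exons share 295 bases with the antisense gene Uchl1os, which is listed at 0 in HSF V30M and, in the other group, at 0.0324 in HSF WT.

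Tubb3 encodes the neuronal class III beta-tubulin and had the widest difference of the members. Its FPKM was 9.68 in HSF V30M nerve against 1.14 in HSF WT, a linear fold of 8.50 without a pseudocount and a log2 ratio of 2.32 with a pseudocount of 1. The levels stood above 53.0% of the counted genes in HSF V30M and above 5.73% in HSF WT. Tubb3 (ENSMUSG00000062380) lies on chromosome 8 from 123411424 to 123422015, with transcripts of 776 and 1868 bases. Between 121 and 414 fragments stand behind the HSF V30M value and between 10 and 39 behind the HSF WT value, and the counting interval of the fold ran from 4.47 to 18.2.

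The Tubb3 value is less certain than its counting interval. The gene lies within the span of the read-through gene Gm20388, from 119910841 to 124345722 on the same strand, and the 2 genes share no exon base. Gm20388 had an FPKM of 22.2 in HSF V30M nerve against 28.1 in HSF WT. Beta-tubulin genes are also alike in their coding sequence, so that reads of the more abundant paralogs may be divided among them. Whether the division of reads between these genes differed between the groups was not tested.

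Of 12 other tubulin genes listed, 11 had a mean of at least 1 and none of these passed the fold. The gene below the minimum, Tubb1, had 0.6 in HSF V30M nerve against 0.0399 in HSF WT, a log2 ratio of 0.62 that would have passed it. The median log2 ratio of the 11 was 0.29, with 8 values above 0 and 3 below. Tuba1a, the most abundant alpha-tubulin here, had an FPKM of 481 in HSF V30M nerve against 327 in HSF WT and a log2 ratio of 0.56, the highest of the list. The counted tubulins ran from -0.07 to 0.56, below the 2.32 of Tubb3.

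**Figure D2:**
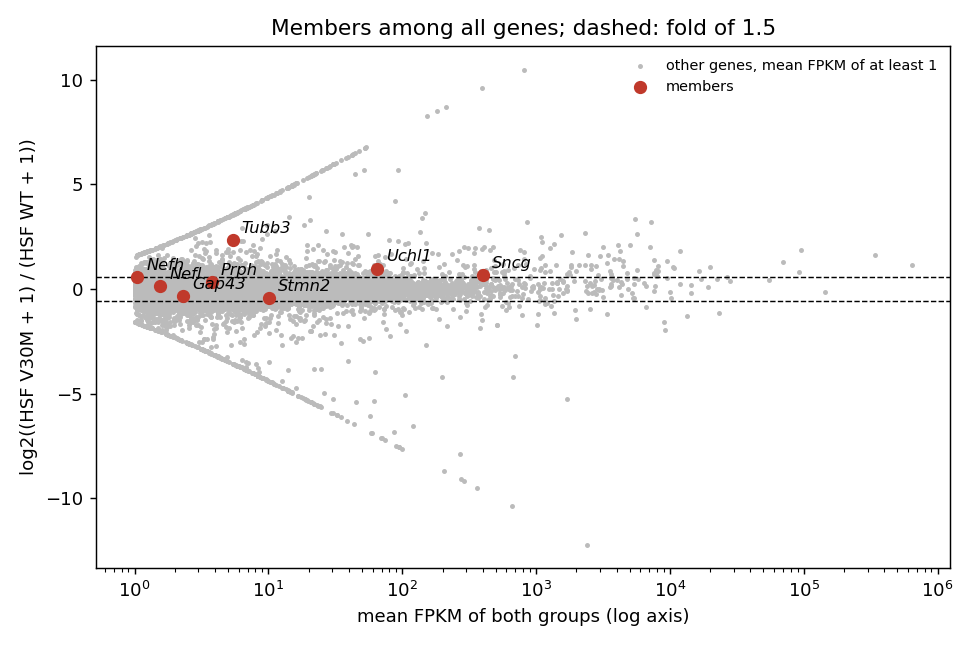
Ratio of HSF V30M to HSF WT on the log2 scale with a pseudocount of 1 against the mean FPKM of both groups (log axis) for the 15620 genes with a mean of at least 1 (grey) and the 8 counted members (red), with dashed lines at a fold of 1.5. Sncg and Uchl1 lie at the right among well-measured genes and Tubb3 lies at 2.32, while Nefh lies just under the upper line at 0.56.

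Neurofilament transcripts were scarce in both groups, and none of them passed the fold. Nefh, the heavy chain, had the largest difference among them, with an FPKM of 1.45 in HSF V30M nerve against 0.657 in HSF WT. These values stand for 119 to 141 and 38 to 52 fragments. The fold without a pseudocount was 2.21, with a counting interval from 1.52 to 3.27, but the log2 ratio with a pseudocount of 1 was 0.56, under the 0.58 that a fold of 1.5 needs. With a pseudocount of 0.1 the log2 ratio was 1.03, past the fold, so that Nefh is called or not by this choice. Nefh (ENSMUSG00000020396) lies on chromosome 11 from 4938754 to 4948064, has 1 transcript of 3994 bases and shares no position with another gene.

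Nefl, the light chain on which the other chains assemble, had an FPKM of 1.68 in HSF V30M nerve against 1.45 in HSF WT, from 116 to 137 and 71 to 96 fragments. Its log2 ratio was 0.13, and the counting interval of the fold, from 0.858 to 1.58, spans equal levels. The ratio of Nefl to Nefh was 1.16 in HSF V30M nerve against 2.2 in HSF WT. Nefm, the medium chain, had an FPKM of 0.39 in HSF V30M nerve against 0.215 in HSF WT, below the minimum mean, from 26 to 35 and 10 to 16 fragments. With the smaller of these numbers, the counting interval of the Nefm fold, from 0.847 to 4.22, also spans equal levels, so a difference in Nefm was not detectable at this depth.

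Nefl (ENSMUSG00000022055) and Nefm (ENSMUSG00000022054) are neighbours on chromosome 14. Nefl lies on the plus strand from 68083863 to 68089095, within the span of Nefm on the minus strand from 68082590 to 68124846, and their annotated exons share 1108 bases. Whether the counting used strand is not given in the sources used here, so part of the reads cannot be assigned to either gene with certainty.

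Peripherin and internexin alpha were the most and the least abundant filament members, and neither passed the fold. Prph, the intermediate filament of sensory and autonomic neurons of small diameter and of motor neurons, had an FPKM of 4.34 in HSF V30M nerve against 3.22 in HSF WT. Its log2 ratio was 0.34, and its level was 2.58-fold that of Nefl in HSF V30M and 2.23-fold in HSF WT. Prph (ENSMUSG00000023484, chromosome 15, 99055174 to 99058978) has 4 transcripts of 397 to 1863 bases, which allow from 19 to 185 fragments in HSF V30M nerve against 10 to 111 in HSF WT. The counting interval of its fold, 0.597 to 3.25, spans equal levels when the fewest fragments that the annotation allows are taken.

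Ina, which is known mainly from central neurons, was at the limit of detection. Its FPKM was 0.03 in HSF V30M nerve against 0.0316 in HSF WT, or about 2 fragments against 1 to 2. No fold is given at this depth. Ina (ENSMUSG00000034336) lies on chromosome 19 from 47014698 to 47025327, and shares 456 exon bases with Nt5c2 on the other strand, which had 9.89 in HSF V30M nerve against 10.5 in HSF WT.

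Among the other intermediate filament genes, which include the nuclear lamins of most cells beside filaments of glia, fibroblasts and muscle, the difference that passed the fold was in Gfap. Gfap, a filament of non-myelinating Schwann cells, had an FPKM of 2.28 in HSF V30M nerve against 8.77 in HSF WT and a log2 ratio of -1.57. The remaining 8 of the 9 genes were not past the fold, among them Vim, the most abundant, with 1780 in HSF V30M nerve against 1410 in HSF WT. The median of the list was 0.09. Of all counted genes, 8.22% were higher past the fold and 8.44% lower.

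The growth-associated members Gap43 and Stmn2 had lower values in HSF V30M, neither of them past the fold. Stmn2, a microtubule regulator of growing and regenerating axons, had an FPKM of 8.45 in HSF V30M nerve against 11.7 in HSF WT, with a log2 ratio of -0.43. Gap43, a membrane protein of the growth cone, had 1.91 in HSF V30M nerve against 2.70 in HSF WT, with a log2 ratio of -0.35. The counting intervals of their folds, from 0.380 to 1.36 and from 0.380 to 1.32, span equal levels when the fewest fragments that the annotation allows are taken.

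Stmn2 (ENSMUSG00000027500) lies on chromosome 3 from 8509360 to 8561606, and its 4 transcripts of 308 to 3413 bases allow from 22 to 696 fragments in HSF V30M nerve against 22 to 784 in HSF WT. Gap43 (ENSMUSG00000047261) lies on chromosome 16 from 42248442 to 42340651, with 23 to 60 fragments in HSF V30M nerve against 23 to 68 in HSF WT. The other growth-associated genes did not pass the fold either. Of 9 listed, 6 reached the minimum mean, and the median log2 ratio was 0.09. Nrn1, a neurite growth factor and the most abundant of them, had 30 in HSF V30M nerve against 28.6 in HSF WT.

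FPKM is per length, so levels may be ordered within a group, and the order was alike in the 2 groups apart from Tubb3. In HSF WT it ran Sncg, Uchl1, Stmn2, Prph, Gap43, Nefl, Tubb3, Nefh, Nefm and Ina. In HSF V30M Tubb3 stood at rank 3, ahead of Stmn2, instead of rank 7, and the other 9 kept their order. In HSF V30M the counting intervals of neighbours overlapped at every step from Tubb3 down to Nefh, and in HSF WT at every step from Prph down to Nefh and between Nefm and Ina. Those of the remaining neighbours did not overlap, but no spread between mice is known for any of them.

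Proteins that bind microtubules gave 1 call, where 8.22% of all counted genes were higher past the fold and 8.44% lower. Of 13 listed genes, 11 reached the minimum mean, and Crmp1, a semaphorin signalling protein of neurons, was past the fold with 2.18 in HSF V30M nerve against 0.984 in HSF WT, a log2 ratio of 0.68. Map4, the most abundant, had 416 in HSF V30M nerve against 328 in HSF WT and was not past it. The median of the list was 0.24, with 10 values above 0 and 1 below.

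Of the transport motors, Kif5c alone passed the fold, where 8.22% of all counted genes were higher past it and 8.44% lower. All 13 listed reached the minimum mean, with a median log2 ratio of -0.04. Kif5c, a neuronal kinesin heavy chain, had 51.9 in HSF V30M nerve against 30.7 in HSF WT, a log2 ratio of 0.74. Kif1a, the carrier of synaptic vesicle precursors and the most abundant of the list, had 151 in HSF V30M nerve against 144 in HSF WT. Of the 9 genes of spectrin, ankyrin and adducin, which form the membrane skeleton, 6 were counted and none passed the fold, with a median of -0.07, and Sptbn1 had 322 in HSF V30M nerve against 306 in HSF WT.

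Of 3 relatives of Sncg and Uchl1 given here, Uchl3 and Uchl5 reached the minimum mean and neither passed the fold. Uchl5, a deubiquitinating enzyme of the proteasome and the most abundant of them, had 11.8 in HSF V30M nerve against 11.6 in HSF WT, and the median log2 ratio of the pair was -0.06.

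**Figure D3:**
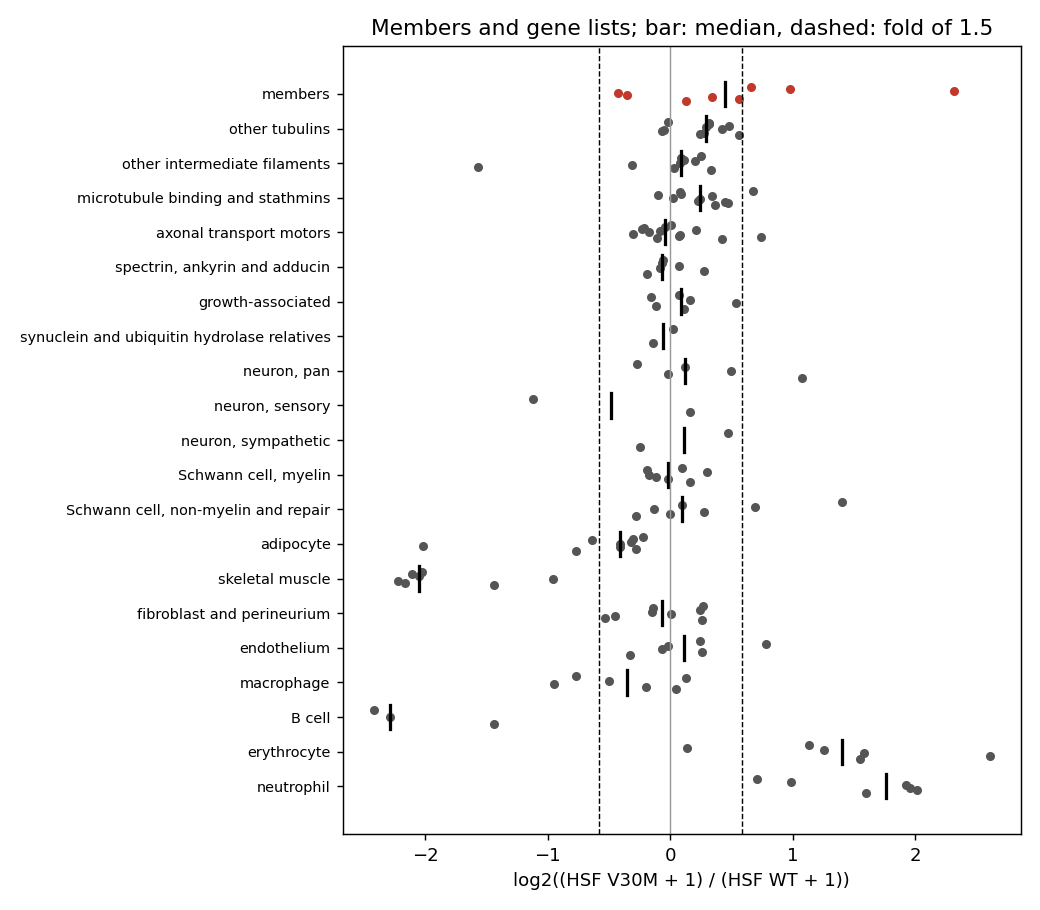
Ratio of HSF V30M to HSF WT on the log2 scale with a pseudocount of 1 for each counted gene (points), by list, with the list median as a black bar and dashed lines at a fold of 1.5. The members (red) spread from -0.43 to 2.32, while the muscle and B cell lists lie far to the left and the erythrocyte and neutrophil lists to the right.

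Most of the listed sensory, motor and sympathetic neuron genes were below the minimum mean. No gene of the motor and cholinergic list reached the minimum mean, and the highest value in it was 0.19. Of the 8 sympathetic genes, 2 reached the minimum mean, the transporters Slc6a2, with 3.74 in HSF V30M nerve against 2.41 in HSF WT, and Slc18a2, with 0.97 against 1.35, while Th, which encodes tyrosine hydroxylase, is listed at 0 in both groups. Of the sensory neuron genes, 9 of 11 were below the minimum, and the counted pair differed in opposite directions. Calca had 3.10 in HSF V30M nerve against 2.66 in HSF WT, a log2 ratio of 0.16. Pvalb, which is also known from fast muscle fibres, had a log2 ratio of -1.12, so the median of the pair, -0.48, describes neither gene. Of the 9 pan-neuronal genes, 5 were counted, with a median log2 ratio of 0.12, 3 values above 0 and 2 below, and 4 of the 5 were not past the fold. The summed FPKM of all 9 was 94.7 in HSF V30M nerve against 94.6 in HSF WT. Rbfox3, a nuclear protein of neurons, was past the fold with 3.65 in HSF V30M nerve against 1.20 in HSF WT, and Thy1, a surface protein of axons that other cells also hold, had 44.2 in HSF V30M nerve against 40.5 in HSF WT.

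Markers of Schwann cells, the major cell type of the nerve, were present in both groups. The 7 myelin genes given here had a median log2 ratio of -0.02, none past the fold, and a summed FPKM of 7940 in HSF V30M nerve against 7600 in HSF WT. Of the 10 genes of non-myelinating and repair Schwann cells, 7 were counted, with a median log2 ratio of 0.10, 5 values above 0 and 2 below. Of these 7, 5 were not past the fold and 2 were higher past it. The larger ratio was that of Shh, with 17.2 in HSF V30M nerve against 5.92 in HSF WT. Scn7a, the most abundant of the list, had 40.2 in HSF V30M nerve against 44.1 in HSF WT.

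Every counted gene of the muscle, B cell and neutrophil lists was past the fold. Beside the counts of all cell type lists stand the shares of all counted genes, 8.22% higher and 8.44% lower. All 7 counted skeletal muscle genes were lower, with a median log2 ratio of -2.05 and a summed FPKM of 44.9 in HSF V30M nerve against 174 in HSF WT. Pvalb, listed here for sensory neurons and also known from fast muscle fibres, had 2.26 in HSF V30M nerve against 6.10 in HSF WT. All 3 counted B cell genes were lower, with a median of -2.29, and all 6 neutrophil genes were higher, with a median of 1.76. Of the 6 erythrocyte genes, 5 were higher past the fold, with a median of 1.40 and a summed FPKM of 291 against 101. The fibroblast and perineurium list had no gene past the fold and a median of -0.07, and the sympathetic list none and 0.11. Of the 6 endothelial genes, Cldn5 was higher past the fold, with a list median of 0.11, and 2 macrophage genes were lower, with a median of -0.35. The part of these cell types in the levels of Tubb3, Uchl1 and Sncg was not tested.

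**Figure D4:**
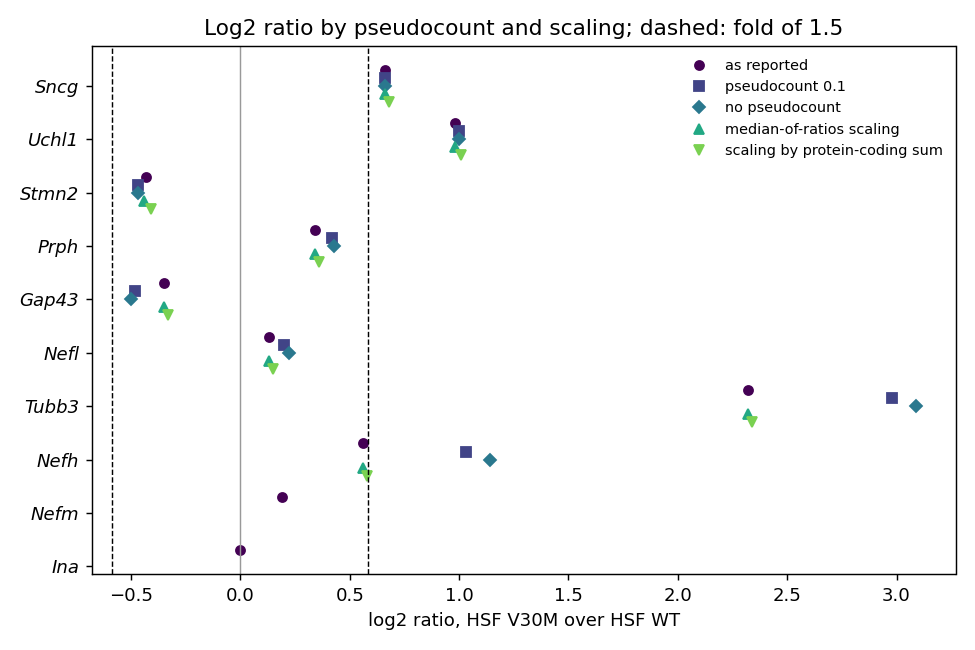
Ratio of HSF V30M to HSF WT on the log2 scale for each member, as reported (pseudocount 1), with a pseudocount of 0.1, without a pseudocount, and under 2 scalings, with dashed lines at a fold of 1.5. Members below the minimum mean (Nefm and Ina) have a point as reported and under no other setting; Nefh moves across the line from 0.56 to 1.03 and 1.14, and Tubb3, Uchl1 and Sncg stay past it.

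The count of 3 higher and 0 lower members was also found with a mean of at least 5, where 7.17% of all genes were higher and 6.33% lower. It was the same without a minimum (6.06% and 6.3%), with median-of-ratios scaling (8.14% and 8.56%) and with scaling by the protein-coding sum (8.61% and 8.04%). With Nefh it was 4 higher and 0 lower at a pseudocount of 0.1, against 10.9% and 10.8% of all genes, and without a pseudocount, against 11.3% and 11.2%. With a fold over 2 it was 1 higher, Tubb3, and 0 lower, against 3.98% and 3.94%.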

How the data were processed

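RNA of sciatic nerve was sequenced after Ion Torrent library preparation. The submitters' processing notes name STAR, Cufflinks and Cuffdiff, without versions, and GRCm38. The FPKM values were made by the authors with Cuffdiff, as 1 value per group, and deposited in a table among other values, the HSF V30M column rounded to 2 decimals. Its columns of fold changes, test statistics, p-values and q-values hold the authors' own comparison and were not used. Decimal commas were read as points. Cuffdiff gave no estimate for 23 genes of excessive read number, which were dropped.

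For genes averaging at least 1 FPKM, 1 was added to both values and the log2 ratio of HSF V30M to HSF WT taken; a linear fold over 1.5 on that scale was counted. The limma fit planned for values per mouse could not be run, and the planned comparison of protein sequences was not run. All 10 members were named. In pathway lists the gene of highest mean and those past the fold were named. In cell type lists the gene of highest mean or of largest ratio was named where a result turned on it, and both genes where a pair was counted. Genes named as absent or as relatives were chosen after their values were seen. The 21 lists and the members were chosen with earlier results of these data known. Some genes of the lists are not reported here and were left out of the counts and medians of their lists.

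The worth of 1 fragment was read from the low values of genes with 1 transcript, alone in their locus and of at least 400 bases, taking an effective length with fragments of 200 ± 80 bases. Of 823 such values in HSF WT, 98.8% lay on a step of either library once rounded, and 97.6% of 736 in HSF V30M. The libraries were 1.35-fold apart in depth in HSF WT and 1.18-fold in HSF V30M. Fragment ranges run from the shortest transcript and shallower library to the longest and deeper, and intervals (Poisson, or exact binomial for a fold) use the smaller number and cover counting error only. Positions are from GENCODE M21. The scripts were tested on simulated data. Computation used matplotlib 3.10.9, scipy 1.17.1, Python 3.11.15, pandas 2.3.3 and numpy 2.4.6.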

Additional observations from a re-analysis of the deposited data

How the results depend on the processing

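No paired analysis was possible because each group has 1 pooled FPKM and no mouse has its own, and leaving out a replicate was equally impossible. The count of members higher in HSF V30M was 3 as reported, against 8.22% of all counted genes. With a fold over 2 it was 1, against 3.98%, where Tubb3 remained and Uchl1 (log2 ratio 0.98) and Sncg (0.66) were not past it. Without a pseudocount, an alternative chosen after seeing the data, and with one of 0.1, Nefh joined the 3 with log2 ratios of 1.14 and 1.03. Of all counted genes, 11.3% and 10.9% were then higher. No member was lower past the fold under any alternative, where from 3.94% to 11.2% of all counted genes were lower. With a fold over 2, the lists of microtubule binding proteins and of transport motors had 0 higher genes in place of 1 each. The first of these also had 0 with a mean FPKM of at least 5, and the other tubulins had 1 (Tubb1) without a minimum. With a mean of at least 5, the median of the growth-associated list was -0.02 over 4 genes. Median-of-ratios scaling shifted ratios by 0.00 and the protein-coding sum by 0.02 on the log2 scale, and neither changed a call of a member. An order within a group does not change with scaling. Without subtraction of the fragment length, the smaller fragment numbers of Prph, Stmn2 and Uchl1, which rest on short transcripts, rose over 1.5-fold (Uchl1 in HSF V30M to 430). Depth limits Ina and Nefm, and the lack of values per mouse limits every comparison.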
